A study of Homo sapiens with 18 samples.

Results

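The SOX, KLF and MYC progenitor factors are 10 genes, of 28100 genes in the count table: the SOX family members SOX2, SOX4 and SOX9, the Krüppel-like factors KLF4 and KLF5, MYC, the pluripotency factors NANOG and POU5F1 (OCT4), the Polycomb subunit BMI1 and the let-7 inhibitor LIN28B. They were chosen by name, with no low-count filter, and the transcript with the highest total count stood for each gene. Their RNA was followed in LNCaP, a human prostate cancer cell line of the luminal, androgen-responsive type, labelled as wild type in every group. Polyadenylated RNA was sequenced from 18 libraries, 3 per group, all taken 48 h after the change of medium.

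Medium conditioned by macrophages of the human THP-1 monocytic line was of 3 kinds: M1 (pro-inflammatory), M2 (immunosuppressive) and M0 (unpolarised). Each was diluted 1:4 in RPMI with 10% heat-inactivated FBS. M1 medium was given with the IκB kinase inhibitor IKK16 at 0.7 µmol/l (the IKK16 libraries), with an equal amount of its solvent DMSO (the DMSO libraries), or alone (the M1 libraries). M2 and M0 medium were each given alone, and the control was RPMI with the same serum, with neither conditioned medium nor DMSO. A comparison of the IKK16 libraries with control therefore also holds the solvent. Replicates are numbered in the labels with no word on whether each was a culture of its own. The p-values therefore reflect the spread among these libraries alone, and that spread may be technical. In bulk RNA, fewer cells of a kind that express a gene and less RNA per cell cannot be told apart.

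POU5F1, SOX2, KLF4 and MYC are the transcription factors used to reprogram somatic cells to pluripotency, and NANOG and LIN28B belong to the same network in embryonic stem cells. In the prostate, SOX9 acts in the budding epithelium and in basal cells, KLF5 in basal and luminal progenitors, and BMI1, through histone H2A ubiquitination by Polycomb repressive complex 1, in self-renewal. MYC binds DNA as a dimer with MAX and raises genes of ribosome biogenesis and metabolism. NF-kB, which IKK16 keeps out of the nucleus by blocking the IκB kinases, is a main route by which inflammatory cytokines change transcription.

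Each library held 24202741.5 to 33814818 counts assigned to genes. All 10 prostate luminal markers were detected in all 18 libraries, and their summed level was 3200 to 3280 CPM (edgeR's unit of counts relative to library size, here TMM-scaled) in M1 libraries and 8930 to 9200 CPM in control libraries. Of 18 macrophage markers, CYBB, TYROBP, C1QA and VSIG4 had 0 counts in all 18 libraries. PTPRC had at most 2 counts per group. The summed macrophage list was 248 to 267 CPM in M1 libraries and 229 to 233 CPM in control libraries, most of it CSF1R, at 196 CPM in M1 libraries and 224 CPM in control libraries. Within that list CD68 (36.9 CPM against 4.93 CPM), ITGAM (20.0 CPM against 0.154 CPM), LYZ (2.28 CPM against 0.051 CPM) and LAPTM5 (0.795 CPM against 0.0228 CPM) stood higher in M1 libraries than in control libraries. SPI1, the myeloid factor PU.1, stood lower (0.131 CPM against 0.526 CPM), as did the sum of the 6 defining markers (187 to 201 CPM in M1 libraries and 222 to 226 CPM in control libraries). The part of these shifts in the results below was not tested.

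In M1 medium against control, SOX9 rose 14.7-fold, KLF4 3.72-fold, KLF5 2.17-fold, POU5F1 2.04-fold and SOX4 2.0-fold, while MYC fell 1.64-fold. With IKK16, SOX9, KLF5 and SOX4 were lower than with DMSO, and KLF4 stayed within the spread of the replicates. NANOG had no count in any library, and SOX2 and LIN28B had only a few counts in all. Of the 10 genes, 7 passed the filter on low counts that precedes the edgeR quasi-likelihood test (SOX4, SOX9, KLF4, KLF5, MYC, POU5F1 and BMI1), and SOX2, NANOG and LIN28B did not. At a Benjamini-Hochberg adjusted p under 0.05, 6 of the 7 tested were called in M1 medium against control, 5 higher and 1 lower, where 64.8% of the 17037 genes tested were called (32.9% higher, 31.9% lower). POU5F1, at low counts, lost its call without M1 replicate 1 or without control replicate 3. The median log2 fold change was 1.03 over the 7 genes and 0.00 over all genes tested. With a share that high in the background, a count of 6 of 7 does not set these genes apart, and their sizes and directions are given gene by gene.

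In IKK16 against DMSO, 4 of the 7 tested progenitor factors were called, where 27.3% of all genes tested were (14.4% higher, 12.9% lower). SOX9, KLF5 and SOX4 were lower and BMI1 was higher, and KLF4, MYC and POU5F1 did not pass. The median log2 fold change of the 7 was 0.02, beside 0.01 for all genes tested. In the IKK16 libraries against control, 5 of the 7 were called, 4 higher and 1 lower, where 52.5% of all genes tested were called (27.1% higher, 25.4% lower).

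**Figure D1:**
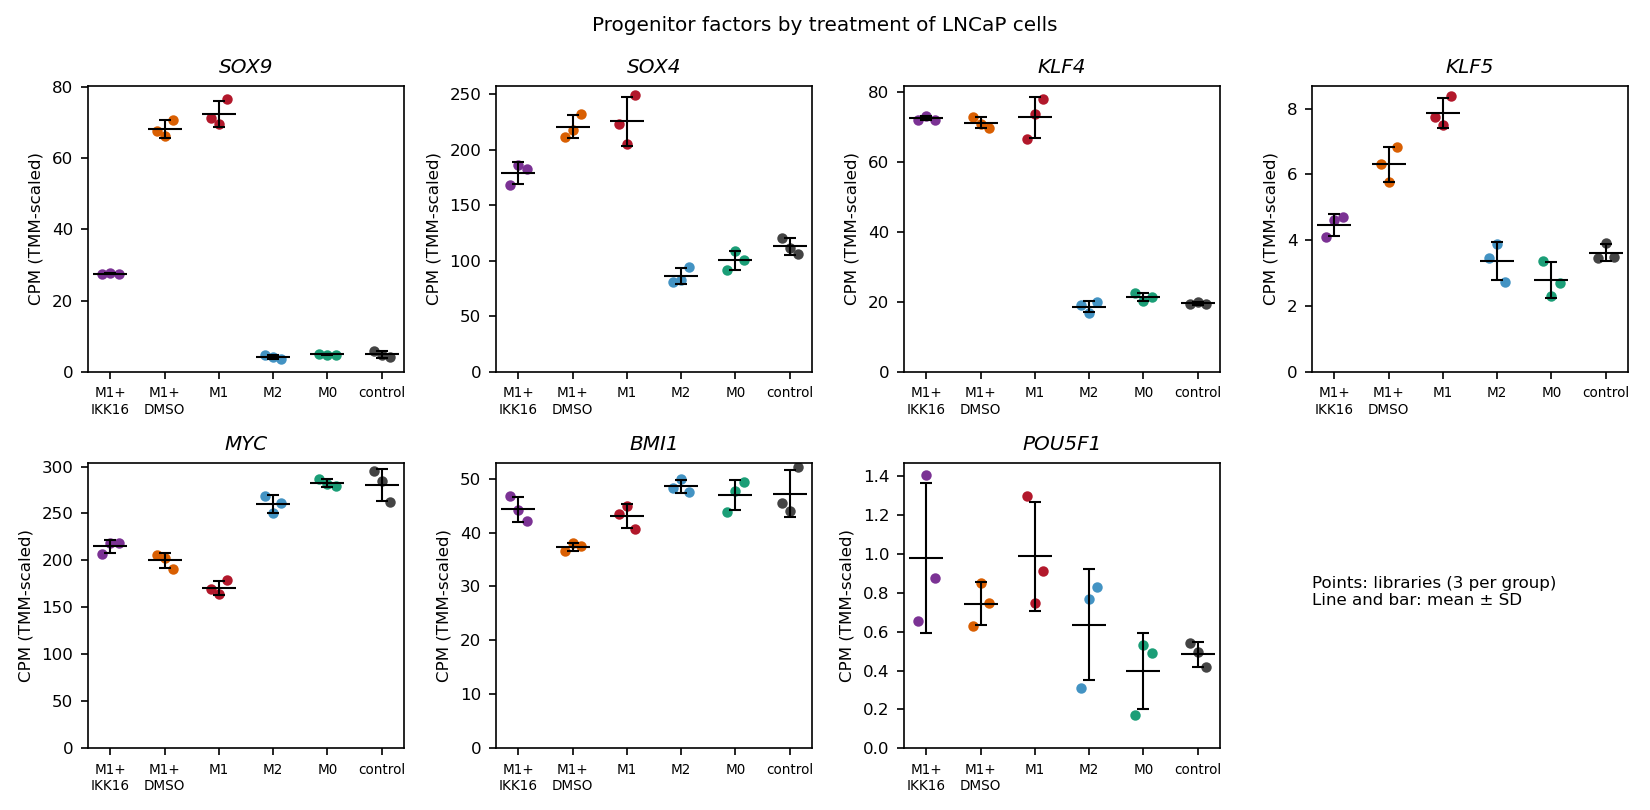
TMM-scaled CPM (y axes, linear, each with its own range from 0) of the 7 tested progenitor factors in the 6 groups (x axes, 3 libraries each as points, mean ± SD as line and bar). SOX9, SOX4, KLF4 and KLF5 were higher in the 3 M1 libraries than in every control library, MYC was lower, and POU5F1 stayed between 0.172 and 1.41 CPM.

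SOX9 (chromosome 17, 72121020 to 72126416, GRCh38.p14), an HMG-box transcription factor of epithelial progenitors, had the largest change of the 7. It stood at 71.2, 69.5 and 76.6 CPM in M1 libraries and at 5.87, 4.85 and 4.06 CPM in control libraries. With DMSO added to M1 medium it stood at 67.6, 66.1 and 70.8 CPM. The M1 and DMSO libraries overlapped, and each lay far above every control library. The log2 fold change of M1 over control was 3.88 ± 0.09 (SE, n = 3 each, edgeR adjusted p = 2.17e-20).

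With IKK16, SOX9 had 27.5, 27.8 and 27.5 CPM, against the DMSO values above, so no IKK16 library reached a DMSO library. That is 2.47-fold lower (log2 fold change -1.31 ± 0.08, edgeR adjusted p = 1.51e-11). No other of the 7 genes fell as far with the inhibitor. SOX9 was still 5.59-fold higher in the IKK16 libraries than in control libraries (log2 fold change 2.48 ± 0.10, edgeR adjusted p = 3.65e-16).

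M2 and M0 medium gave SOX9 levels near control. M2 libraries had 4.69, 4.11 and 3.53 CPM and M0 libraries 5.11, 4.73 and 4.78 CPM, both overlapping control. M1 libraries exceeded M2 libraries 17.5-fold (log2 4.13 ± 0.10, edgeR adjusted p = 1.19e-20) and M0 libraries 14.9-fold (log2 3.89 ± 0.09, edgeR adjusted p = 2.84e-20). The neighbouring long noncoding RNA SOX9-AS1 (chromosome 17, 72071042 to 72120793), which does not overlap the counted SOX9 gene, had 12.5 counts in DMSO libraries, 13.5 in M1 libraries and 0 in the other groups, too few to test.

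SOX4 (chromosome 6, 21593751 to 21598619), a SoxC factor of progenitor and tumour cells, rose in M1 libraries against control and fell with IKK16 against DMSO, as SOX9 did, by smaller folds. M1 libraries had 223, 205 and 249 CPM and control libraries 121, 112 and 106 CPM. The groups did not overlap, with a log2 fold change of 1.00 ± 0.07 (edgeR adjusted p = 4.26e-11). DMSO libraries had 212, 218 and 232 CPM, overlapping M1 libraries.

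IKK16 libraries had 168, 186 and 183 CPM of SOX4, all below the DMSO libraries and all above the control libraries. Against DMSO, SOX4 fell 1.23-fold (log2 fold change -0.30 ± 0.07, edgeR adjusted p = 0.00393). Against control it was 1.58-fold higher (log2 fold change 0.66 ± 0.07, edgeR adjusted p = 8.39e-08). By group mean, M1 and DMSO overlapped at the top, then came IKK16, and then control, M0 and M2, of which neighbours overlapped.

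M2 libraries had 81.2, 82.8 and 94.3 CPM of SOX4 and M0 libraries 92.0, 109 and 101 CPM. Every M2 library was below every control library, and SOX4 fell 1.31-fold in M2 medium against control (log2 fold change -0.39 ± 0.08, edgeR adjusted p = 0.00479). No other of the 7 genes was called in M2 against control, where 8.77% of all genes tested were called (3.49% lower). Across 16204 genes, the log2 fold change of M2 over control went with transcript length (Spearman rho -0.291, a description of genes that share these libraries). The length used for SOX4, from GENCODE, was 5852 bases, which is more than the span of the gene as placed above. With the length trend of each library removed, the log2 fold change of SOX4 was -0.33 ± 0.06 (edgeR adjusted p = 0.00409). CASC15, a long noncoding RNA downstream of SOX4 (chromosome 6, 21666413 to 22195820), had 52 counts in M1 libraries and 11.5 in control libraries, summed over 3 libraries each. It passed the filter only through groups given M1 medium, where it is high, so no test is given.

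SOX2 (chromosome 3, 181711925 to 181714436), the SOX factor of pluripotent and neural stem cells, was close to the limit of detection. Its counts, unscaled and in steps of 0.5, were 4, 1 and 0.5 in DMSO libraries, 1, 3 and 1 in M1 libraries and 0, 0 and 1 in M2 libraries. All IKK16, M0 and control libraries had 0. A count of 0 allows up to 3 counts, which is 0.0897 to 0.126 CPM in a library, and a single library held more than 3 counts of SOX2. With 5 counts summed over the M1 group and 0 over the control group, and 5.5 over the DMSO group of which 4 lie in 1 library, no fold change was drawn. Reads amplified by PCR are not independent molecules, so this floor covers counting error only.

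Without a low-count filter SOX2 did not pass the threshold in M1 against control (edgeR adjusted p = 0.104), in M1 against M2 (edgeR adjusted p = 0.339) or in IKK16 against DMSO (edgeR adjusted p = 0.202). In that unfiltered fit of 23440 genes, 48.1% were called in M1 against control, 49.8% in M1 against M2 and 19.1% in IKK16 against DMSO. SOX2 lies inside SOX2-OT, a long noncoding RNA on chromosome 3 (181056680 to 181742228). SOX2-OT had 13.2 ± 0.301 CPM in M1 libraries and 13.7 ± 1.99 CPM in control libraries (log2 fold change -0.05 ± 0.09, edgeR adjusted p = 0.657). Whether strand was used in counting is not given in the sources used here, so the few reads at SOX2 cannot be assigned to one of these overlapping genes with certainty.

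**Figure D2:**
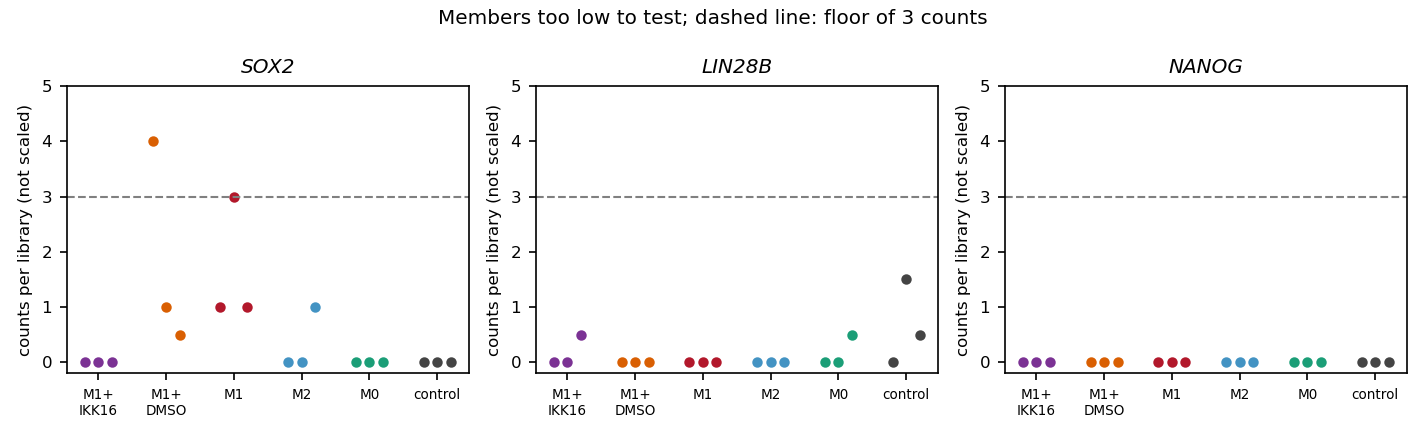
Unscaled counts per library (y axis) of SOX2, LIN28B and NANOG, the 3 genes too low to test, by group (x axis, 3 libraries each). The dashed line is the floor of 3 counts, which 1 DMSO library exceeded for SOX2. NANOG had 0 counts in all 18 libraries.

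Among the other SOX genes the called changes in M1 medium were falls. Of 17 listed, 6 passed the filter. In M1 against control 3 of these fell, where 31.9% of all genes tested fell, namely SOX12 (93.7 ± 9.16 CPM in M1 libraries and 148 ± 11.3 CPM in control libraries, log2 fold change -0.66), SOX11 (1.87 ± 0.171 CPM and 2.79 ± 0.292 CPM, log2 fold change -0.59) and SOX13 (25.7 ± 1.07 CPM and 37.0 ± 3.06 CPM, log2 fold change -0.52), and the other 3 did not pass. SOX11 and SOX12 are the SoxC relatives of SOX4. The list's median log2 fold change was -0.37, beside 0.00 for all genes tested. With IKK16 against DMSO 0 of the 6 were called by edgeR, where 27.3% of all genes tested were, and 1 had an unadjusted p under 0.05.

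KLF4 (chromosome 9, 107484852 to 107489769), a zinc finger factor of epithelial differentiation and reprogramming, rose in M1 medium to about the same level with or without the inhibitor. It stood at 66.5, 73.8 and 78.0 CPM in M1 libraries and at 19.4, 20.0 and 19.3 CPM in control libraries. IKK16 libraries had 72.1, 73.1 and 72.1 CPM and DMSO libraries 72.9, 70.9 and 69.7 CPM. All 9 libraries with M1 medium lay above all 9 without it, and the 3 M1-medium groups overlapped one another.

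For KLF4 the log2 fold change of M1 over control was 1.89 ± 0.07 (edgeR adjusted p = 4.71e-17). IKK16 against DMSO gave 0.02 ± 0.06 (edgeR adjusted p = 0.819), which did not pass. IKK16 libraries were 3.7-fold above control libraries (log2 fold change 1.89 ± 0.07, edgeR adjusted p = 1.12e-16). M2 libraries had 19.0, 16.8 and 20.0 CPM and M0 libraries 22.6, 20.3 and 21.5 CPM. Every M0 library was above every control library for KLF4, yet the log2 fold change of 0.13 ± 0.07 did not pass (edgeR adjusted p = 0.228).

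KLF5 (chromosome 13, 73054976 to 73077538), a factor of proliferating basal and luminal epithelium, was low and changed with both M1 medium and the inhibitor. M1 libraries had 7.74, 7.5 and 8.38 CPM and control libraries 3.45, 3.92 and 3.5 CPM, a log2 fold change of 1.12 ± 0.13 (edgeR adjusted p = 8.74e-08). IKK16 libraries had 4.09, 4.62 and 4.7 CPM, below all DMSO libraries at 6.31, 5.76 and 6.84 CPM. KLF5 fell 1.4-fold with IKK16 against DMSO (log2 fold change -0.49 ± 0.13, edgeR adjusted p = 0.00898).

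Unlike SOX9, KLF4 and SOX4, KLF5 was not called in the IKK16 libraries against control (log2 fold change 0.31 ± 0.14, edgeR adjusted p = 0.0747), although every IKK16 library lay above every control library. A p that misses the threshold does not show that the levels were equal. DMSO libraries were also below all M1 libraries for KLF5, by a log2 fold change of -0.32 ± 0.12 that did not pass (edgeR adjusted p = 0.128). M2 libraries had 3.47, 3.89 and 2.73 CPM and M0 libraries 3.38, 2.29 and 2.7 CPM. Control and M2 overlapped at the low end, as did M2 and M0.

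RefSeq promoter windows (250 bases before the start site, GRCh38.p14) were read for KLF4 and KLF5 because both rose in M1 medium while only KLF5 was called lower with IKK16 against DMSO. That these responses to IKK16 differ between the genes was not itself tested. Both strands were searched for the NF-kB decamer, the STAT motif TTCNNNGAA, the AP-1 motif TGANTCA and the E-box CACGTG, the site of MYC and MAX, with no overlap between the matches found. Of 35116 promoters in the table, 5.21% hold the NF-kB decamer, 6.57% the STAT motif, 6.57% the AP-1 motif and 6.34% the E-box. The KLF4 window (chr9:107489770-107490019, minus strand) holds an E-box, in capitals, that begins at base -157 from the start site. The KLF5 window shown (chr13:73054726-73054975, plus strand) holds none of the 4 motifs and is in lower case throughout. KLF5 has another window (chr13:73058755-73059004), which overlaps a KLF5 exon and is not printed. It too holds none of the 4 motifs. The window shown has 40.8% G or C and the other has 70.8%.
KLF4: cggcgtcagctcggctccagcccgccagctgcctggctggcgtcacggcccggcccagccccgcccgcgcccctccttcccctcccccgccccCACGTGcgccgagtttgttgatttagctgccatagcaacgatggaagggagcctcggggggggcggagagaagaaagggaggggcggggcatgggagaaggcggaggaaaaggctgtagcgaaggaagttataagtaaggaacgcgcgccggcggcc
KLF5: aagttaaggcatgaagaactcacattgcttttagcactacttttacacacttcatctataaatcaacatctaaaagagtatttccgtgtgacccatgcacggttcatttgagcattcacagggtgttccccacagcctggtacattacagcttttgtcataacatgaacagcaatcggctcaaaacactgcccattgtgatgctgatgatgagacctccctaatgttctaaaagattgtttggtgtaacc
A match is a description of letters, and a window with no match says only that these letters are not in it.

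Of 15 other KLF genes listed, 13 passed the filter, and in M1 against control 3 rose and 6 fell, a share near the 64.8% called over all genes tested. The risers were KLF10, an early TGF-beta response repressor (48.2 ± 1.91 CPM in M1 libraries and 28.0 ± 1.97 CPM in control libraries, log2 fold change 0.78), KLF8 (2.08 ± 0.12 CPM and 1.41 ± 0.413 CPM, 0.54) and KLF3, a repressor (68.3 ± 1.94 CPM and 47.3 ± 3.05 CPM, 0.53). KLF15, a metabolic regulator (13.7 ± 1.6 CPM and 29.3 ± 2.0 CPM, log2 fold change -1.09), KLF2, known from endothelium (1.84 ± 0.278 CPM and 3.41 ± 0.122 CPM, -0.88), and KLF13 (54.7 ± 3.39 CPM and 75.4 ± 4.21 CPM, -0.46) fell most. KLF4 therefore had the largest rise of all the tested KLF genes. With IKK16 against DMSO 2 of the 13 rose and 1, KLF13, fell (log2 fold change -0.18), where 27.3% of all genes tested were called.

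**Figure D3:**
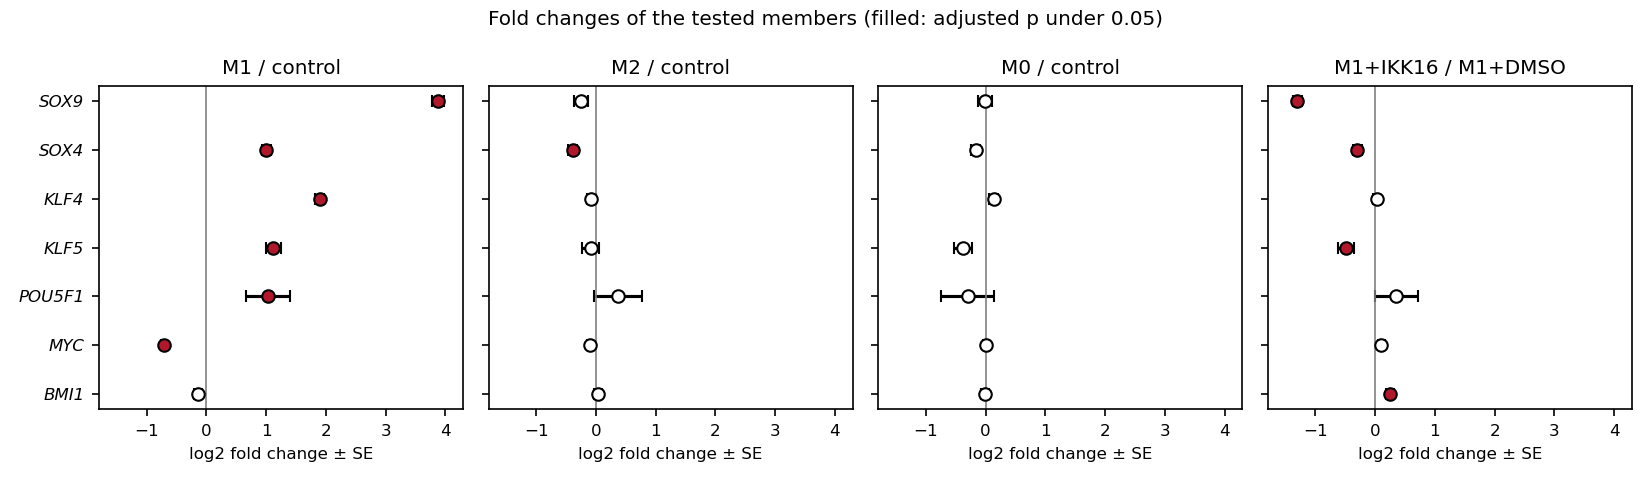
Log2 fold change ± SE (x axis) of the 7 tested progenitor factors (rows) in M1 against control, M2 against control, M0 against control, and M1 medium with IKK16 against M1 medium with DMSO, from edgeR on all 18 libraries. Filled points have an adjusted p under 0.05: all but BMI1 in M1, SOX4 in M2, and SOX9, SOX4, KLF5 and BMI1 with IKK16.

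MYC (chromosome 8, 127735434 to 127742951), the growth-promoting factor that pairs with MAX, was lower in M1 medium. M1 libraries had 170, 164 and 179 CPM and control libraries 295, 285 and 262 CPM. The log2 fold change was -0.71 ± 0.05 (edgeR adjusted p = 1.92e-11), with all M1 libraries below all control libraries. M2 libraries had 269, 250 and 261 CPM and M0 libraries 287, 281 and 279 CPM. M1 libraries were 1.52-fold below M2 libraries (edgeR adjusted p = 3.73e-10) and 1.65-fold below M0 libraries (edgeR adjusted p = 1.59e-11).

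DMSO libraries had 206, 203 and 191 CPM of MYC, every one above the M1 libraries without solvent (log2 fold change 0.23 ± 0.05, 1.17-fold, edgeR adjusted p = 0.0168). MYC was the only one of the 7 genes called in DMSO against M1, where 4.25% of all genes tested were called (2.22% higher). That share rests on few libraries: over all genes edgeR called 27 higher and 44 lower without M1 replicate 2, 44 and 68 without DMSO replicate 1, and 863 and 625 without M1 replicate 3. The call of MYC did not hold when M1 replicate 1 or 2, or DMSO replicate 1 or 2, was left out (edgeR adjusted p 0.0724, 0.122, 0.0944 and 0.0704 in that order). IKK16 libraries had 207, 219 and 219 CPM. They did not overlap the DMSO libraries, but the log2 fold change of 0.11 ± 0.05 did not pass (edgeR adjusted p = 0.136). Against control, MYC was 1.3-fold lower in IKK16 libraries (log2 fold change -0.38 ± 0.05, edgeR adjusted p = 1.07e-06).

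Of 12 genes of the MYC network, 11 were tested, and 3 rose and 3 fell in M1 against control, where 32.9% of all genes tested rose and 31.9% fell. MXD1, an antagonist that competes for MAX, had 15.9 ± 1.75 CPM in M1 libraries and 7.35 ± 1.27 CPM in control libraries (log2 fold change 1.11 ± 0.11, edgeR adjusted p = 6.51e-09). MLXIP, a glucose-sensing partner of MLX, had a log2 fold change of 0.54 and MAX had 0.13. MLXIPL, the related glucose sensor ChREBP, had -0.99, MXD3 -0.62 and MLX -0.27. MYCN had 0 counts in all groups. With IKK16 against DMSO MXD3 rose (0.25) and MXD4 (-0.25) and MLXIP (-0.29) fell, and MXD1 gave 0.01 ± 0.11 (edgeR adjusted p = 0.975). Over all genes tested 27.3% were called there.

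Genes of ribosome biogenesis and metabolism that are known to respond to MYC also fell in M1 medium. Of 20 listed and tested, 17 fell in M1 against control and 3 (EIF4E, WDR43 and HSPD1) did not pass, with a median log2 fold change of -0.34, where 31.9% of all genes tested fell with a median of 0.00 over all. LDHA, lactate dehydrogenase A, had 343 ± 13.4 CPM in M1 libraries and 689 ± 17.1 CPM in control libraries (log2 fold change -1.01 ± 0.07, edgeR adjusted p = 2.76e-12). ODC1, the first enzyme of polyamine synthesis, had 417 ± 6.58 CPM and 795 ± 7.52 CPM (-0.93 ± 0.04, edgeR adjusted p = 6.68e-16). FBL, the nucleolar RNA methyltransferase fibrillarin, had 154 ± 4.57 CPM and 254 ± 15.7 CPM (-0.72 ± 0.05, edgeR adjusted p = 1.85e-11).

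With IKK16 against DMSO 11 of the 20 rose and the other 9 did not pass, where 14.4% of all genes tested rose. The list's median log2 fold change was 0.18, beside 0.01 for all genes tested. LDHA had 691 ± 27.7 CPM in IKK16 libraries and 344 ± 30.5 CPM in DMSO libraries (log2 fold change 1.01 ± 0.07, edgeR adjusted p = 5.24e-11). ODC1 had 664 ± 17.4 CPM and 468 ± 9.49 CPM (0.51 ± 0.04, edgeR adjusted p = 7.23e-10), and FBL 203 ± 9.91 CPM and 170 ± 7.49 CPM (0.26 ± 0.05, edgeR adjusted p = 0.000654). MYC itself, as given above, was not called in that comparison.

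**Figure D4:**
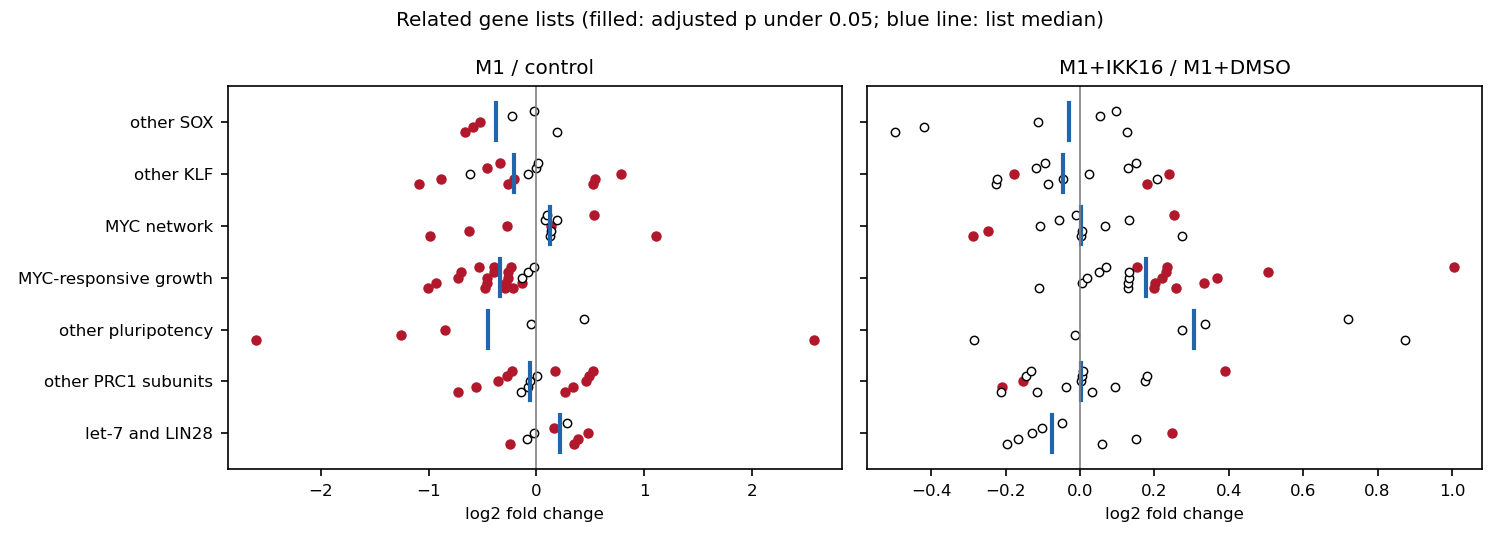
Log2 fold change (x axes, each with its own range) of the tested genes in 7 related lists (rows), for M1 against control (left) and M1 medium with IKK16 against M1 medium with DMSO (right). Filled points have an edgeR adjusted p under 0.05 and the blue line is the list median. The MYC-responsive growth genes have 17 of 20 filled points on the lower side at left and 11 of 20 on the higher side at right.

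POU5F1 (chromosome 6, 31164337 to 31170682), the pluripotency factor OCT4, was above the floor of 3 counts in all 18 libraries but low. M1 libraries had 41, 22 and 28 counts and control libraries 16.5, 14 and 13.5 counts. On the scaled level this was 1.3, 0.75 and 0.915 CPM in M1 libraries and 0.544, 0.494 and 0.417 CPM in control libraries. The groups did not overlap, and the log2 fold change was 1.03 ± 0.37 (edgeR adjusted p = 0.0183). The call did not hold without M1 replicate 1 (edgeR adjusted p = 0.112) or without control replicate 3 (edgeR adjusted p = 0.0563).

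POU5F1 stood at 0.654, 1.41 and 0.876 CPM in IKK16 libraries and at 0.631, 0.853 and 0.75 CPM in DMSO libraries, which overlap (log2 fold change 0.35 ± 0.36, edgeR adjusted p = 0.513). IKK16 libraries were 1.98-fold above control libraries (log2 fold change 0.99 ± 0.38, edgeR adjusted p = 0.0341). Leaving out any control library, or IKK16 replicate 2, ended that call, with edgeR adjusted p of 0.0575 to 0.226. M2 libraries had 0.311, 0.768 and 0.832 CPM and M0 libraries 0.172, 0.532 and 0.492 CPM, both overlapping control. M1 libraries overlapped M2 libraries (log2 fold change 0.66 ± 0.36, edgeR adjusted p = 0.103), and were 2.51-fold above M0 libraries (edgeR adjusted p = 0.00473).

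POU5F1 has near-identical copies elsewhere in the genome, and how reads that match several places were treated is not given in the sources used here. The copy POU5F1B, on chromosome 8, had 0.643 ± 0.112 CPM in M1 libraries and 0.95 ± 0.132 CPM in control libraries (log2 fold change -0.55 ± 0.34, edgeR adjusted p = 0.159). Reads could be split between the pair, so the level of POU5F1 is uncertain.

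NANOG (chromosome 12, 7789402 to 7799146), a homeobox factor of pluripotent cells, had 0 counts in all 18 libraries, which allows up to 0.0897 to 0.126 CPM in each and 0.0328 CPM over the M1 group. No group held more than 1 count of NANOGP8, a near-identical copy. Reads that match both NANOG and a copy could have been left out, which this limit does not cover. LIN28B (chromosome 6, 104937026 to 105083332), an RNA-binding protein that blocks let-7 maturation, had 0.5 counts in IKK16 libraries, 0.5 in M0 libraries and 2 in control libraries, summed over 3 libraries each, and 0 in DMSO, M1 and M2 libraries. Every LIN28B library was under 3 counts, so no difference was detectable at this depth.

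Other genes of the pluripotency network were mostly below the filter or low. Of 16 listed, 6 passed the filter, and in M1 against control 1 was called higher and 3 fell, a share near the 64.8% called over all genes tested. The 1 called higher was TFCP2L1, a factor of naive pluripotency, with 44 counts in M1 libraries and 7.5 in control libraries, summed over 3 libraries each. It passed the filter only through groups given M1 medium, where it is high, so its call supports nothing. TERT, the catalytic subunit of telomerase, had 0.831 ± 0.33 CPM in M1 libraries and 5.05 ± 1.05 CPM in control libraries (log2 fold change -2.61 ± 0.21, edgeR adjusted p = 1.82e-10). DNMT3B, a de novo DNA methyltransferase, had 5.42 ± 0.734 CPM and 12.9 ± 0.582 CPM (-1.25 ± 0.14, edgeR adjusted p = 3.84e-08). The nuclear receptor NR5A2 had 0.278 CPM in M1 libraries and 0.495 CPM in control libraries (log2 fold change -0.85). NR5A2 passed the filter only through groups without M1 medium, where it is higher, so its call supports nothing either. With IKK16 against DMSO edgeR called 0 of the 6, where it called 27.3% of all genes tested, and 0 had an unadjusted p under 0.05.

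Of 12 genes of the let-7 and LIN28 pathway, 8 were tested, and in M1 against control 4 rose and 1 fell, a share near the 64.8% called over all genes tested. DGCR8 of the Microprocessor had 53.3 ± 4.17 CPM in M1 libraries and 38.2 ± 2.61 CPM in control libraries (log2 fold change 0.48). DICER1, which cuts precursor microRNAs, had a log2 fold change of 0.38 and TUT7, a uridyltransferase of let-7 precursors, had 0.35. DIS3L2, the nuclease that degrades uridylated let-7 precursors, fell (log2 fold change -0.24) and rose with IKK16 against DMSO (0.25), the 1 called gene of the list there, where 27.3% of all genes tested were called.

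BMI1 (chromosome 10, 22321099 to 22331706), a PCGF subunit of Polycomb repressive complex 1, changed least in M1 medium against control. M1 libraries had 43.4, 45.0 and 40.6 CPM and control libraries 45.4, 44.0 and 52.2 CPM, which overlap (log2 fold change -0.14 ± 0.07, edgeR adjusted p = 0.0807). Without control replicate 2 the log2 fold change was -0.18 and passed (edgeR adjusted p = 0.0314). IKK16 libraries had 46.7, 44.1 and 42.1 CPM, above all DMSO libraries at 36.5, 38.0 and 37.5 CPM. BMI1 was thus 1.19-fold higher with IKK16 than with DMSO (log2 fold change 0.25 ± 0.07, edgeR adjusted p = 0.00976), a call that ended without IKK16 replicate 1 (edgeR adjusted p = 0.0692).

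The DMSO libraries were also below every M1 library for BMI1 (log2 fold change -0.20 ± 0.07, edgeR adjusted p = 0.0861, not called), while the IKK16 and M1 libraries overlapped. M2 libraries had 48.3, 49.9 and 47.5 CPM and M0 libraries 43.9, 47.7 and 49.4 CPM. M1 libraries were 1.13-fold below M2 libraries (log2 fold change -0.18 ± 0.07, edgeR adjusted p = 0.0252), a call that ended without M1 replicate 3 (edgeR adjusted p = 0.106) or M2 replicate 2 (edgeR adjusted p = 0.0785). BMI1 overlaps the readthrough gene COMMD3-BMI1 (chromosome 10, 22316388 to 22331484), so their reads could be shared. COMMD3-BMI1 gave a log2 fold change of -0.07 ± 0.06 in M1 against control (edgeR adjusted p = 0.317) and 0.22 ± 0.06 with IKK16 against DMSO (edgeR adjusted p = 0.0135).

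A pair of RefSeq start sites gave BMI1 promoter windows. The second (chr10:22321706-22321955, plus strand) is shown because it alone, of 10 windows read for 7 of the 10 genes, holds the NF-kB decamer. No window was read for SOX9, MYC or POU5F1, so the search says nothing on these genes. The window shown lies inside the BMI1 gene as placed above, and 91.6% of its bases are G or C. Of 35116 promoters, 5.21% hold the decamer. The match, in capitals, begins at base -177 from the start site.
BMI1: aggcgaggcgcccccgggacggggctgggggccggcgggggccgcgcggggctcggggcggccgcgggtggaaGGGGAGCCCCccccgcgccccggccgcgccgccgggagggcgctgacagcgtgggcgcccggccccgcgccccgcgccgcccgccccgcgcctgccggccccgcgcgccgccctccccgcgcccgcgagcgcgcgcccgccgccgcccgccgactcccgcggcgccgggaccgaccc
The window at the other start site (chr10:22320849-22321098) holds an E-box at base -70. In all, 3 of the 10 windows hold an E-box, and 0 hold the STAT or the AP-1 motif.

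Of 15 other Polycomb repressive complex 1 subunits listed and tested, 6 rose and 5 fell in M1 against control, where 32.9% of all genes tested rose and 31.9% fell. The median log2 fold change was -0.06. PCGF5 (40.4 ± 2.2 CPM in M1 libraries and 28.2 ± 1.6 CPM in control libraries, log2 fold change 0.52) and PCGF1 (10.6 ± 0.974 CPM and 7.62 ± 1.36 CPM, 0.49), which take the place of BMI1 in variant complexes, rose, as did PHC2 (0.46). The chromobox subunit CBX8 (24.5 ± 0.87 CPM and 40.7 ± 2.01 CPM, log2 fold change -0.73) and PCGF6 (-0.56) fell. With IKK16 against DMSO PCGF6 rose (0.39), and CBX8 (-0.21) and PHC2 (-0.15) fell, 3 of the 15, where 27.3% of all genes tested were called.

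The 7 factors were also compared between the macrophage media. In M1 against M0, 6 of the 7 were called, 5 higher and 1 lower, where 67.2% of all genes tested were called (34.2% higher, 33.0% lower). In M1 against M2, 6 were called, 4 higher and 2 lower, where 67.5% of all genes tested were called (34.3% higher, 33.2% lower). These comparisons and M1 against control share the M1 libraries and are not independent of each other. In M2 against M0 edgeR called 0 of the 7 and 0.106% of all genes tested. At an unadjusted p under 0.05 there were 3 (SOX4, KLF4 and MYC, each lower in M2 libraries), and DESeq2 called 0.

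In M0 against control edgeR called 0 of the 7, where it called 11.7% of all genes tested. At an unadjusted p under 0.05 there were 2, KLF5 and SOX4, both lower in M0 libraries, and DESeq2 called 0. The log2 fold changes of the 7 ran between -0.39 for KLF5 and 0.13 for KLF4. The count over all genes rests on single libraries: without control replicate 1 edgeR called 24 genes higher and 6 lower, and without M0 replicate 1 it called 55 higher and 14 lower.

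Levels were also set per kilobase of the length used for the counted transcript, which allows genes to be compared. On that scale SOX4 stood at 38.6 ± 3.74 CPM per kb in M1 libraries. It was followed by KLF4 at 25.9 ± 2.07, SOX9 at 18.4 ± 0.945, BMI1 at 12.6 ± 0.655, KLF5 at 2.67 ± 0.155 and POU5F1 at 0.695 ± 0.198 CPM per kb. In control libraries SOX4 stood at 19.3 ± 1.26, BMI1 at 13.8 ± 1.27, KLF4 at 6.96 ± 0.139, SOX9 at 1.25 ± 0.231, KLF5 at 1.23 ± 0.087 and POU5F1 at 0.342 ± 0.0453 CPM per kb. The counted MYC transcript had no length in GENCODE. With the length of another MYC transcript (2366 bases), MYC stood at 72.2 ± 3.25 CPM per kb in M1 libraries and 119 ± 7.16 in control libraries. SOX9 thus stood between KLF4 and BMI1 in M1 libraries, and beside KLF5, within the spread of the replicates, in control libraries. The length used for SOX4, 5852 bases, is more than the span of its gene, so its values per kb are low estimates.

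For each tested factor the genes of nearest pattern were found as those with the smallest root-mean-square (RMS) difference of the 6 group means of log2 CPM, each gene centred on its own mean, among 17036 other genes. For SOX9 they were TTBK1 (RMS difference 0.0637), SAA4 (0.108) and MUC20 (0.145), where the RMS of the SOX9 pattern itself was 1.79. SAA4 had 0 CPM in M2, M0 and control libraries and passed the filter only through groups given M1 medium. The likeness of SAA4 is therefore partly set by the filter, and nothing is drawn from it. TTBK1, a tau kinase, had 1.71 CPM in IKK16 libraries, 4.49 in DMSO, 5.12 in M1, 0.239 in M2, 0.268 in M0 and 0.272 in control libraries. With means that low in M2, M0 and control libraries, the limit given for SAA4 may hold for TTBK1. Nothing is drawn from its likeness either. For KLF4, with an own RMS of 0.932, they were RNF145 (0.0556), TLCD4 (0.0978) and CD6 (0.1). The same limit holds for CD6, at 0.396 CPM in M1 libraries and 0.0683 CPM in control libraries. RNF145, a ubiquitin ligase, had 172 CPM in IKK16 libraries, 167 in DMSO, 175 in M1, 46.7 in M2, 48.3 in M0 and 49.1 in control libraries.

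For SOX4 the nearest were MBOAT4 (RMS difference 0.0457), MIR4690 (0.0589) and FOXO3 (0.062), and for KLF5 they were LPP (0.0641), TEP1 (0.0832) and RRAGC-DT (0.0932). FOXO3, a forkhead factor, had 183 CPM in M1 libraries and 97.1 CPM in control libraries. MYC was matched most closely by SLC25A1, the mitochondrial citrate carrier (RMS difference 0.0239), PTMS (0.0268) and FBXW9 (0.0292), against an own RMS of 0.269. SLC25A1 had 145 CPM in M1 libraries and 233 CPM in control libraries. POU5F1 was matched by PLD1 (0.126), FAM221B (0.139) and LINC01607 (0.14), and BMI1 by TCEANC2 (0.0197) and TAF1A (0.0207). LINC01607 had 0.495 CPM in M1 libraries and 0.267 CPM in control libraries, so the limit given for SAA4 may hold for it. The likenesses named here are over 6 group means and carry no test.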

How the data were processed

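Polyadenylated RNA of 18 LNCaP libraries (6 groups of 3, grouped by the labels' titles) was analysed. The authors deposited expected counts per RefSeq transcript, in steps of 0.5 and without normalisation. Trimmomatic, BWA 0.7.17, HOMER 4.10 and the genome build hg38 are named, per the submitters' processing notes; what each tool did, and how strand and multiply matching reads were handled, is not given in the sources used here. Of 70507 transcripts, 69830 were named from an NCBI gene table (GRCh38.p14) and 343 from GENCODE, and the remaining 334, which took 0.0883 to 0.109% of a library, were unnamed and left out. Each gene was represented by its transcript of highest total count, so a switch of transcript can appear as a change of level. The length used was the longest that GENCODE matched to that transcript. Where that transcript had no length in GENCODE, the length of the gene's most counted transcript that had one was used. The 10 members and the gene lists were chosen with earlier results of these data known, so no count over them is independent evidence.

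Counts were rounded to whole numbers and tested with edgeR 4.0.16 (R 4.3.3, limma 3.58.1): TMM scaling, filterByExpr (17037 genes kept, 11063 left out), a quasi-likelihood fit of 1 mean per group on all 18 libraries, and 9 two-sided comparisons, each adjusted by Benjamini-Hochberg over all genes tested. The common biological coefficient of variation was 0.0627. Each SE was obtained from the log2 fold change and its F. Values in CPM are means ± SD of the unrounded counts over TMM-scaled library sizes (24202741.5 to 33814818 counts before scaling). A gene at 0 is limited to 3 counts. Replicates differed by more than sampling noise (chi-square per gene 2.71 to 21.56). The fit was tested on simulated counts.

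All 10 members were named, and from each list up to 3 called genes per direction with the largest log2 fold change in M1 against control. Some genes that these rules or the measure of likeness name are not reported here. Genes named for IKK16 outside that rule (MXD4) and the markers CD68, ITGAM, LYZ and LAPTM5 were chosen after their values were seen. Other settings tried were DESeq2 1.42.0, edgeR with median-of-ratios scaling, no filter, a filter of 1 CPM in 3 libraries, the 2 groups alone, a block for the replicate number, the longest transcript of a gene, removal of each library's trend on transcript length (a lowess fit of span 0.3), and each library left out in turn. The replicate numbers were not taken as pairs, since same-numbered libraries did not deviate together (correlation over 0.1 in 2 of 45 pairs).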

Additional observations from a re-analysis of the deposited data

How the results depend on the processing

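Of 63 tests (7 genes in 9 comparisons) 29 passed the threshold, and 24 of these kept direction and call under every alternative run, among them all calls of SOX9, KLF4, KLF5 and SOX4. The other 5 lost the call only when single libraries were left out: POU5F1 in M1 against control (highest edgeR adjusted p 0.112), POU5F1 in IKK16 against control (0.226), BMI1 in M1 against M2 (0.106), BMI1 in IKK16 against DMSO (0.0692), and MYC in DMSO against M1 (0.122). The count of changed genes in DMSO against M1 was 1, and 0 to 1 without single libraries. It was 2 in a fit of the 2 groups alone, where BMI1 joined (edgeR adjusted p = 0.0434). BMI1 was also called with the length trend removed in M1 against control (edgeR adjusted p = 0.0338) and in M1 against M0 (edgeR adjusted p = 0.0152). It was called too without control replicate 2 in M1 against control (edgeR adjusted p = 0.0314) and without M0 replicate 1 in M1 against M0 (edgeR adjusted p = 0.0392). The cause was not tested. Differences near 0 that had not passed changed sign. In M0 against control, SOX9 gave 0.028 and BMI1 0.024 (log2 fold change) with the length trend removed, and POU5F1 0.23 with the longest transcript. Without single libraries, the log2 fold change in M0 against control ran between -0.136 and 0.136 for SOX9, -0.0316 and 0.0519 for MYC, -0.525 and 0.0536 for POU5F1, and -0.0501 and 0.0789 for BMI1. In M2 against control it ran between -0.203 and 0.0336 for KLF5 and between -0.007 and 0.122 for BMI1. In DMSO against M1 it ran between -0.0955 and 0.0445 for SOX4 and between -0.0907 and 0.0249 for KLF4. With the replicate number as a block, 6 of the 7 genes were called in M1 against control and 4 with IKK16 against DMSO. The block, which rests on a shared number and not on a known pairing, changed no count of called genes among the 7. Over all genes it gave 300 higher and 288 lower in DMSO against M1, beside 378 and 346 without the block. POU5F1 did not pass the filter of 1 CPM and has no value there. Without a filter SOX2 was not called under any alternative (edgeR adjusted p 0.104 to 0.314 in M1 against control). Of 17037 genes tested, M2 against control gave 899 higher and 595 lower, but 110 and 62 without control replicate 1 and 87 and 77 without M2 replicate 1, so the shares called over all genes in the M0 and M2 comparisons with control, and in DMSO against M1, rest on few libraries. Depth limits SOX2, LIN28B and NANOG, which hold at most 4 counts in a library.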
